A study of Mus musculus with 6 samples.

Results

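The genes described here make, modify and clear the prostaglandins and leukotrienes, lipid mediators of skin inflammation. They are the 10 genes Ptgs1, Ptgs2, Ptges, Ptgds, Hpgd, Alox5, Alox5ap, Alox12, Alox15 and Ltc4s, chosen by symbol, of 34590 gene symbols in the count files. All 10 passed the filter on low counts and were among the 16691 genes tested. RNA came from whole skin of C57BL/6 mice, 3 Tnip1-/- and 3 Tnip1+/+ animals, all given imiquimod on the skin surface for 2 days. The Tnip1 product binds ubiquitin chains and works with A20 to hold back NF-kB signalling, and imiquimod is a Toll-like receptor 7 agonist that gives mouse skin a psoriasis-like inflammation. The labels give neither the age or sex of the mice nor the deleted part of Tnip1, and skin without imiquimod was not analysed here, so every difference below is one between genotypes under treatment.

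Both families of mediator start from arachidonic acid, which phospholipase A2 enzymes release from membrane lipids. Cyclooxygenases, encoded by Ptgs1 and Ptgs2, turn it into prostaglandin H2, and terminal synthases such as Ptges then make the individual prostaglandins. Hpgd encodes the dehydrogenase that begins their inactivation. In the other branch, Alox5 with its helper protein, encoded by Alox5ap, makes leukotriene A4, which is passed on to leukotriene B4 or, by the enzyme of Ltc4s, to the cysteinyl leukotrienes. Prostaglandin E2 is a long known mediator of redness, pain and keratinocyte growth in skin, and leukotriene B4 draws neutrophils.

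Gene counts summed to between 19529970 and 25864730 in the Tnip1-/- libraries and to between 24701074 and 31005554 in the Tnip1+/+ libraries. Levels are CPM (a gene's share of its library's counts, scaled to a fixed library size) adjusted by TMM, a method that corrects for the makeup of each library, and are given as mean ± SD over 3 libraries. Tests are quasi-likelihood F tests of edgeR, with p adjusted by Benjamini-Hochberg over all genes tested. A gene is called at an adjusted p under 0.05, and log2 fold changes are Tnip1-/- over Tnip1+/+ with their standard error (SE). Tnip1 itself stood at 1.81 ± 0.230 CPM in Tnip1-/- skin and 26.4 ± 1.55 CPM in Tnip1+/+ skin. The genotypes differed at 45.1% of all genes tested, 22.3% called higher and 22.7% called lower, and the groups did not overlap at 59.8% of them. With library totals in place of TMM factors, the median log2 fold change of all genes was -0.19 instead of -0.04 and 34.1% of calls were higher instead of 49.6%. The keratinocyte markers Krt5, Krt14, Krt1, Krt10, Trp63 and Dsp summed to 21243 to 24693 CPM in Tnip1-/- skin and 7911 to 13020.4 CPM in Tnip1+/+ skin, so the tissue carried the markers of its label. The list was mixed: Krt5, Krt14 and Krt1 were called higher, Krt10 lower (log2 -0.95), and Trp63 and Dsp were not called. Krt14 alone had 10059 to 13950 CPM in Tnip1-/- skin and 1222 to 2765 CPM in Tnip1+/+ skin. Skeletal muscle markers summed to 2267 to 3829 CPM in Tnip1-/- skin and 7549 to 13398 CPM in Tnip1+/+ skin, and all 6 were called lower. Single libraries stood apart: Tnip1-/- replicate 2 held almost no fat, with adipocyte markers at 72.3 CPM against 1059 and 1245 CPM in the other Tnip1-/- libraries, and Tnip1+/+ replicate 3 was rich in melanocyte and hair follicle markers. These are whole-tissue values, in which fewer cells of a type and less RNA per cell cannot be told apart.

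Of the 10 genes, 3 were called higher in Tnip1-/- skin (Ptges, Hpgd and Alox5ap), 2 lower (Ptgds and Alox15) and 5 not called. These shares of 30% and 20% are near the 22.3% and 22.7% of all genes, and for 5 of the 10, or 50%, the genotypes were fully separate, against 59.8% of all genes. The median log2 fold change of the 10 was -0.26, against -0.04 over all genes tested.

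**Figure D1:**
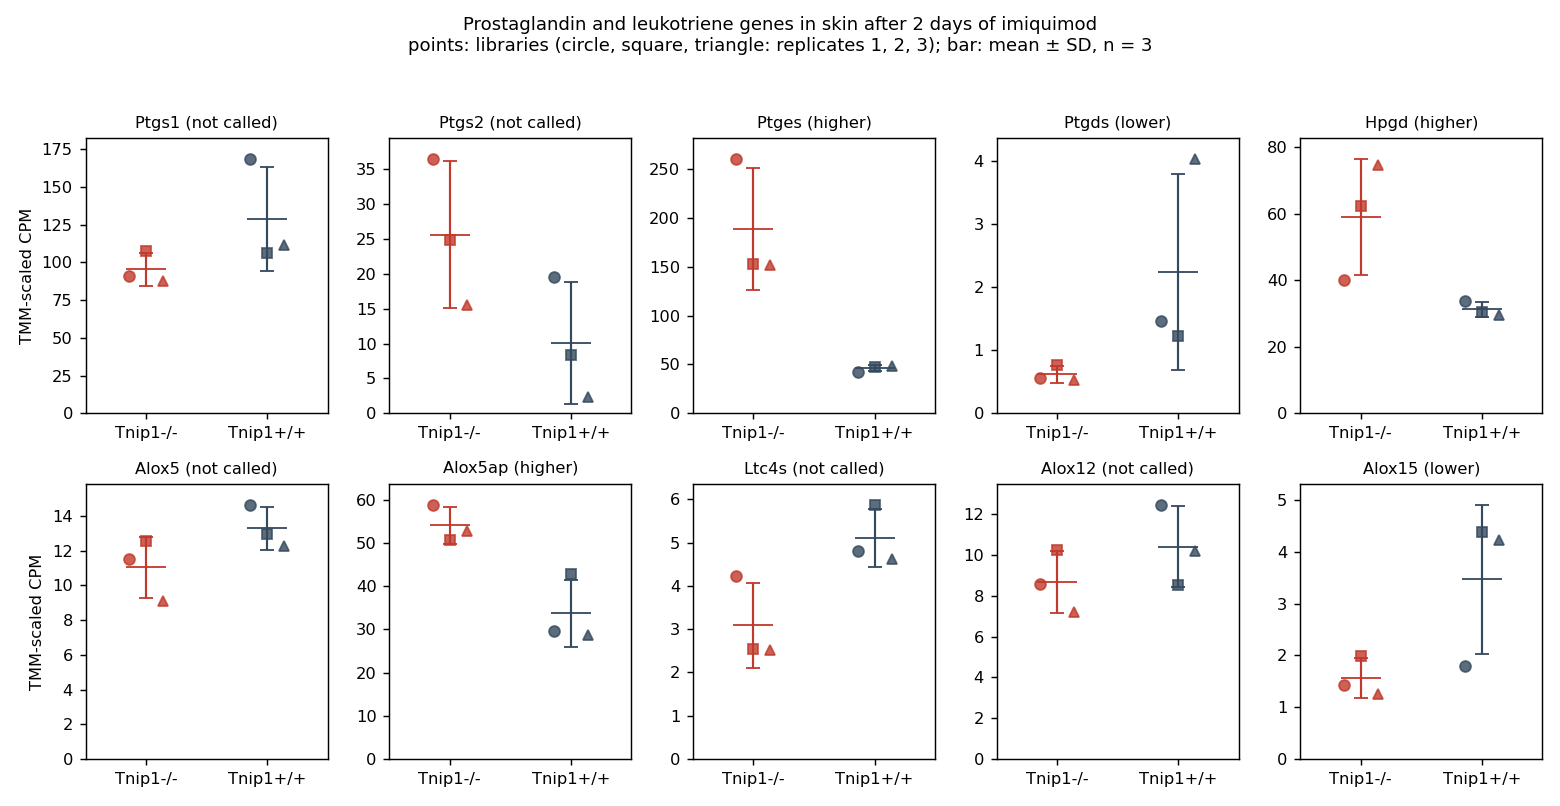
TMM-scaled CPM of the 10 genes (vertical axes, each from 0) in the Tnip1-/- and Tnip1+/+ libraries after 2 days of imiquimod. Points are libraries, with circle, square and triangle for replicates 1, 2 and 3, and bars are mean ± SD (n = 3). Ptges, Hpgd and Alox5ap lie higher in every Tnip1-/- library, Ptgds and Ltc4s lower, and the other 5 genes overlap.

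Cyclooxygenases set the supply of prostaglandin H2. Ptgs1 encodes the form present in most resting tissues and Ptgs2 the form that inflammatory signals induce. The windows around their RefSeq start sites (GRCm38.p6, 250 bases before to 50 after, read in the direction of the gene) are printed because the balance of this pair is measured below. Capitals mark matches on either strand to a GC box (GGGCGG) or a C/EBP motif (TTGCNNAA).
Ptgs2, chr1:150099781-150100080, plus strand: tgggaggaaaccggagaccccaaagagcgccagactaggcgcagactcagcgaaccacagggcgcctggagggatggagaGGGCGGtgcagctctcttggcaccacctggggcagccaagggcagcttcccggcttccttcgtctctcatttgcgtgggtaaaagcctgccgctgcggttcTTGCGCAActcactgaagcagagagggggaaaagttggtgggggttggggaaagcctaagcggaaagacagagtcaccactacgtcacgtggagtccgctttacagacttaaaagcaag
Ptgs1, chr2:36230176-36230475, plus strand: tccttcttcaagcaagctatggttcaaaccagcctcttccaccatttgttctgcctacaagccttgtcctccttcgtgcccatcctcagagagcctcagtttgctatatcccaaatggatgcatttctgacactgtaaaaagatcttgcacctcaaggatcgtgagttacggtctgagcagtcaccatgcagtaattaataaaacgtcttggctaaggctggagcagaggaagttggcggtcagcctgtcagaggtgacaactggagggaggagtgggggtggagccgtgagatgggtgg

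The Ptgs2 window held a GC box at -170 to -165 and a C/EBP match at -69 to -62 from the start site, and the Ptgs1 window held no match to any of the 6 motifs searched. The others were the TATA box (TATAAA), AP-1 (TGANTCA), CRE (TGACGTCA) and NF-kB, all searched on both strands. Of 32851 promoter windows of the same length, 35.7% held a GC box, 10.8% the C/EBP motif, 13.6% the TATA box, 7.81% AP-1, 1.79% CRE and 8.46% NF-kB. No match in the windows printed here overlapped a match to another motif. Matches describe these letters and were not measured as binding sites.

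Ptgs2 had 36.5, 24.9 and 15.5 CPM in the Tnip1-/- libraries, against 19.6, 8.39 and 2.33 CPM in the Tnip1+/+ libraries. The groups overlapped, since Tnip1+/+ replicate 1 lay above Tnip1-/- replicate 3, and the Tnip1+/+ libraries ranged widely among themselves. The log2 fold change was 1.34 (SE 0.68) and was not called (adjusted p = 0.144). Without Tnip1+/+ replicate 1 it was called at 2.27 (adjusted p = 0.0311), and without Tnip1+/+ replicate 3 it stood at 0.88 (adjusted p = 0.181). Ptgs1 had 90.7, 107.9 and 87.5 CPM in the Tnip1-/- libraries, against 168.7, 106.3 and 111.6 CPM in the Tnip1+/+ libraries. Its groups overlapped too, with 1 high library, Tnip1+/+ replicate 1, and the log2 fold change of -0.43 (SE 0.20) was not called (adjusted p = 0.11). Without that library it was -0.18 (adjusted p = 0.315). Fibroblast markers summed to 6814, 6140 and 6230 CPM in the Tnip1-/- libraries, against 16454, 7723 and 6393 CPM in the Tnip1+/+ libraries. The high sum of Tnip1+/+ replicate 1 came from the collagen genes Col1a1, Col1a2 and Col3a1. Col1a1 had 2354 CPM there, against 180 and 317 CPM in the other Tnip1+/+ libraries. The markers Dcn, Lum and Pdgfra were not highest in that library, and Pdgfra was lowest there (158 CPM). The part of fibroblasts in the Ptgs1 values was not tested.

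Set against each other within a library, which needs no scaling between libraries, the 2 cyclooxygenases separated the genotypes. There were 0.402, 0.231 and 0.177 Ptgs2 counts per Ptgs1 count in the Tnip1-/- libraries, against 0.116, 0.0789 and 0.0209 in the Tnip1+/+ libraries. Every Tnip1-/- library lay above every Tnip1+/+ library. The mean log2 ratio was -1.97 ± 0.603 in Tnip1-/- skin and -4.11 ± 1.29 in Tnip1+/+ skin (SD, n = 3 each), a difference of 2.14. A two-sided exact permutation test gave p = 0.1, the smallest that 3 against 3 libraries allow. Without Tnip1+/+ replicate 3, whose ratio was the lowest, the difference was 1.41. Counts are not corrected for the length of the 2 transcripts, so the ratio is read between libraries and not as a ratio of molecules.

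**Figure D2:**
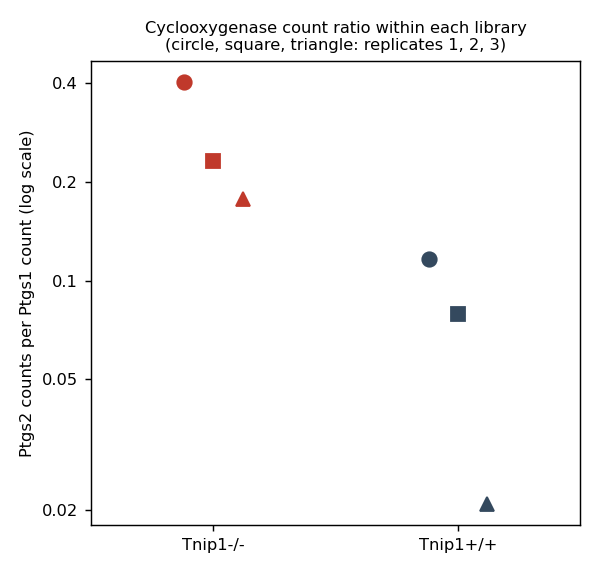
Ptgs2 counts per Ptgs1 count in each library (vertical log axis), Tnip1-/- left and Tnip1+/+ right, with circle, square and triangle for replicates 1, 2 and 3. The Tnip1-/- libraries lie between 0.177 and 0.402, above the Tnip1+/+ libraries at 0.0209 to 0.116.

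Ptges, which encodes the inducible microsomal synthase of prostaglandin E2, was the gene of the 10 with the largest increase. It had 260.7, 152.7 and 152.1 CPM in the Tnip1-/- libraries, against 42.7, 47.4 and 48.3 CPM in the Tnip1+/+ libraries. The groups lay far apart, with Tnip1-/- replicate 1 the highest. Ptges rose 4.09-fold (log2 2.03, SE 0.23, adjusted p = 0.00124), and the log2 value ran from 1.73 to 2.18 with each library left out, called every time. Hpgd encodes 15-hydroxyprostaglandin dehydrogenase, which inactivates prostaglandin E2 and related prostaglandins. It rose as well, with 40.0, 62.4 and 74.6 CPM in the Tnip1-/- libraries, against 33.8, 30.5 and 29.5 CPM in the Tnip1+/+ libraries. All Tnip1-/- values were higher than all Tnip1+/+ values, and the order within Tnip1-/- skin was the reverse of that of Ptgs2, with replicate 1 lowest. Hpgd rose 1.89-fold (log2 0.91, SE 0.22, adjusted p = 0.0152), and stayed called with each library left out (0.72 to 1.14).

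The start-site windows of these genes, a synthase and the enzyme that clears its product, are printed because both were called higher. Capitals again mark motif matches, here GC boxes and a TATA box.
Ptges, chr2:30903248-30903547, minus strand: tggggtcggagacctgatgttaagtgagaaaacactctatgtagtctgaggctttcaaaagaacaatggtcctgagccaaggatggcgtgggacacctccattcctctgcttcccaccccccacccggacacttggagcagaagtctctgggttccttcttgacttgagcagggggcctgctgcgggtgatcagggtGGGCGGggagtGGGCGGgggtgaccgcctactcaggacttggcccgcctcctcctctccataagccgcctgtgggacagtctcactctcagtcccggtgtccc
Hpgd, chr8:56294302-56294601, plus strand: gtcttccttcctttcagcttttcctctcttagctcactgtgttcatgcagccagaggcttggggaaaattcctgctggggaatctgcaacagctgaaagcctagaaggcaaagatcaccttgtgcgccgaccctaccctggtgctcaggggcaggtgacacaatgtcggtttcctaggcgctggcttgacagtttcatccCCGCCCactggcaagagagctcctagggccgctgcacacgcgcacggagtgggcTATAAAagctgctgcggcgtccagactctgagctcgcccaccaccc

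The Ptges window held GC boxes at -53 to -48 and at -42 to -37. The Hpgd window held a GC box on the opposite strand at -50 to -45 and the TATA box letters at 5 to 10 after the annotated start. RefSeq windows were found for 8 of the 10 genes, and GC boxes stood in 5 of these, while the NF-kB and AP-1 motifs each stood in 1, that of Ptgds.

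Ptgds, which encodes the lipocalin-type prostaglandin D synthase, was low in all libraries and lower in Tnip1-/- skin. It had 0.560, 0.762 and 0.522 CPM (13, 18 and 10 counts) in the Tnip1-/- libraries, against 1.47, 1.22 and 4.04 CPM (49, 36 and 109 counts) in the Tnip1+/+ libraries. The groups did not overlap, and Tnip1+/+ replicate 3 stood far above the others. Ptgds fell to 0.278 of its Tnip1+/+ level (log2 -1.84, SE 0.53, adjusted p = 0.0269). The value was -1.11 without Tnip1+/+ replicate 3, still called (adjusted p = 0.044), and the call ended without any single Tnip1-/- library (adjusted p = 0.0569 to 0.0815) and in limma voom (-1.60, adjusted p = 0.0522). The 5 melanocyte markers, Dct, Tyr, Tyrp1, Pmel and Mlana, were all detected and summed to 13.3, 6.82 and 7.73 CPM in the Tnip1-/- libraries, against 17.0, 28.4 and 130.9 CPM in the Tnip1+/+ libraries. The 5 hair follicle keratins summed to 0.720 to 1.31 CPM in Tnip1-/- skin and to 2.52, 0.782 and 39.5 CPM in Tnip1+/+ replicates 1, 2 and 3. Tnip1+/+ replicate 3 was thus the highest library for Ptgds and for both marker lists, and the part of these cells in the result was not tested.

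In the leukotriene branch, Alox5ap rose while Alox5 was not called. Alox5ap encodes the membrane protein that presents arachidonic acid to 5-lipoxygenase. It had 58.9, 50.7 and 52.8 CPM in the Tnip1-/- libraries, against 29.7, 42.7 and 28.7 CPM in the Tnip1+/+ libraries. The groups did not overlap and the Tnip1-/- libraries lay close together. Alox5ap rose 1.61-fold (log2 0.68, SE 0.18, adjusted p = 0.0186), and its call ended without Tnip1-/- replicate 1 (0.63, adjusted p = 0.0577). Alox5, the gene of 5-lipoxygenase itself, had 11.5, 12.5 and 9.09 CPM in the Tnip1-/- libraries, against 14.7, 13.0 and 12.3 CPM in the Tnip1+/+ libraries. These ranges overlapped narrowly, and the log2 fold change was -0.27 (SE 0.16, adjusted p = 0.216), or -0.14 without Tnip1-/- replicate 3 and -0.18 without Tnip1+/+ replicate 1.

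Ltc4s encodes the synthase that joins glutathione to leukotriene A4. It had 4.22, 2.54 and 2.51 CPM in the Tnip1-/- libraries, against 4.80, 5.88 and 4.63 CPM in the Tnip1+/+ libraries. All Tnip1-/- values lay below all Tnip1+/+ values, but the log2 fold change of -0.72 (SE 0.26) was not called (adjusted p = 0.0609). It was called without Tnip1-/- replicate 1 (-1.01, adjusted p = 0.023), and also by DESeq2, limma voom, library totals and upper-quartile factors (adjusted p = 0.0231 to 0.0461). In a later annotation (GENCODE M21), 26.4% of the exon bases of Ltc4s and 13.3% of those of Alox5ap are shared with an antisense gene, whose reads cannot be told apart here.

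Leukocytes are known as the main source of 5-lipoxygenase and its helper protein, so their markers are given beside these genes. Neutrophil markers summed to 189.9, 110.0 and 143.0 CPM in the Tnip1-/- libraries, against 27.5, 34.6 and 18.8 CPM in the Tnip1+/+ libraries. Of 11 neutrophil markers, 8 were tested and 7 of these were called higher (87.5%, against 22.3% of all genes). The markers Ly6g, Mpo and Elane were too low to test (0.474 CPM or less in any library). Macrophage and monocyte markers summed to 2335 to 2843 CPM in Tnip1-/- skin and 1404 to 2157 CPM in Tnip1+/+ skin, with 4 of 10 called higher and 0 lower. Mast cell markers summed to 164.2 to 221.8 CPM in Tnip1-/- skin and 158.8 to 320.5 CPM in Tnip1+/+ skin, ranges that overlapped, with 3 of 10 called higher and 0 lower. The 3 were Tpsab1, Fcer1a and Hdc, a share of 30% against 22.3% of all genes. The median log2 fold change of the mast cell list was -0.38, so the list as a whole did not rise. Of 4 Langerhans and dendritic cell markers, 0 were called higher and 3 lower (Cd207, Itgax and Flt3). These shares of 0% and 75% stand against 22.3% and 22.7% of all genes. Their sums overlapped, at 119.9 to 149.5 CPM in Tnip1-/- skin and 122.6 to 160.2 CPM in Tnip1+/+ skin. Most of each sum was Epcam, which was not called (log2 0.11). Cd207, which marks Langerhans cells and had the lowest log2 value of the 4 (-2.85), had 2.37, 3.35 and 1.10 CPM in the Tnip1-/- libraries. It had 12.5, 15.9 and 21.1 CPM in the Tnip1+/+ libraries. Of 5 T cell markers 0 were called higher and 2 lower (0% and 40%, against 22.3% and 22.7% of all genes). T cell sums were 10.7 to 19.1 CPM in Tnip1-/- skin and 16.0 to 22.4 CPM in Tnip1+/+ skin. Neutrophil and macrophage sums, like Alox5ap, were higher in every Tnip1-/- library than in any Tnip1+/+ library, and their part in its increase was not tested.

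Of the other lipoxygenases, Alox15 encodes the mouse 12/15-lipoxygenase of eosinophils and resident macrophages. It had 1.42, 1.99 and 1.25 CPM (33, 47 and 24 counts) in the Tnip1-/- libraries, against 1.80, 4.38 and 4.22 CPM (60, 129 and 114 counts) in the Tnip1+/+ libraries. Tnip1+/+ replicate 1 lay within the Tnip1-/- range and the other Tnip1+/+ libraries well above it. Alox15 fell to 0.452 of its Tnip1+/+ level (log2 -1.15, SE 0.39, adjusted p = 0.0493). Its call ended without any single library but Tnip1+/+ replicate 1 (-1.34 to -0.94, adjusted p = 0.0658 to 0.135) and in limma voom (-1.02, adjusted p = 0.0958). The eosinophil markers Epx, Prg2, Siglec5, Ccr3 and Il5ra summed to 2.11, 2.46 and 2.25 CPM in the Tnip1-/- libraries, against 2.10, 9.52 and 6.74 CPM in the Tnip1+/+ libraries. The libraries high in Alox15 were those high in this sum. The granule markers Epx and Prg2 were at or near 0 in all 6 libraries (0.339 CPM at most), so the sum came from the receptors Siglec5, Ccr3 and Il5ra, and its part in the result was not tested.

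Alox12, the gene of the platelet-type 12-lipoxygenase, had 8.58, 10.3 and 7.21 CPM in the Tnip1-/- libraries, against 12.5, 8.53 and 10.2 CPM in the Tnip1+/+ libraries. These values interleaved, and the log2 fold change of -0.26 (SE 0.20) was not called (adjusted p = 0.32), and was -0.14 without Tnip1-/- replicate 3 and -0.10 without Tnip1+/+ replicate 1. Platelet markers summed to 59.3 to 89.5 CPM in Tnip1-/- skin and 32.5 to 34.6 CPM in Tnip1+/+ skin. Most of each sum was Pf4, with 49.6 to 77.4 CPM in Tnip1-/- skin and 27.03 to 29.3 CPM in Tnip1+/+ skin. Of 6 platelet markers, 4 were tested and 3 of these, Pf4, Itga2b and Gp1bb, were called higher (75%, against 22.3% of all genes). Ppbp overlapped between the genotypes and was not called, and Gp9 and Treml1 were too low to test.

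**Figure D3:**
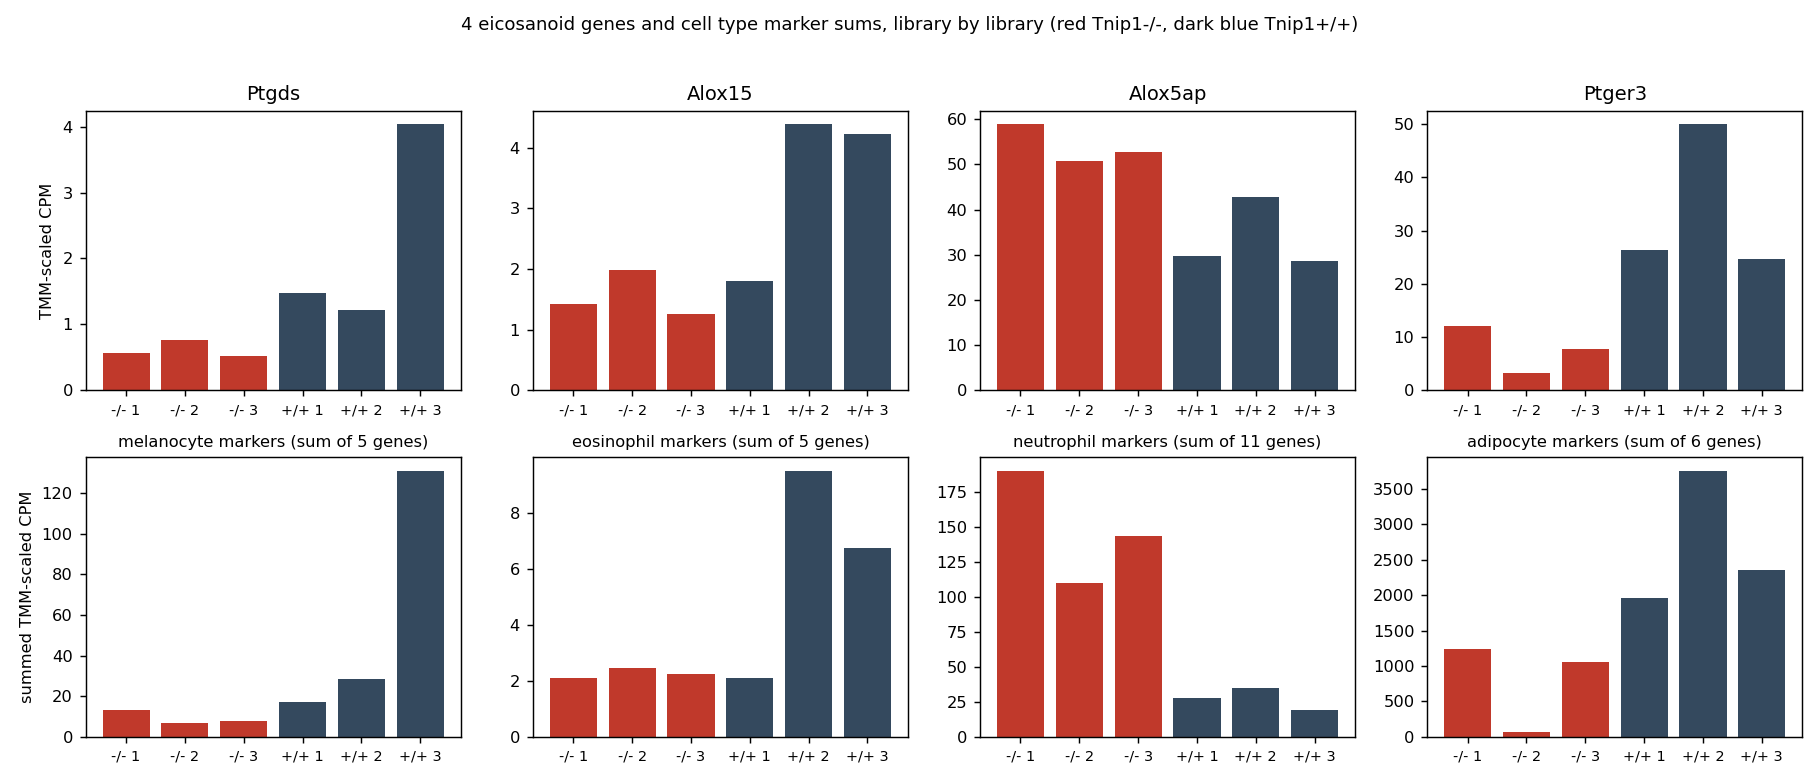
TMM-scaled CPM of Ptgds, Alox15, Alox5ap and the prostaglandin receptor gene Ptger3 (upper row) above the summed CPM of the markers of 1 cell type each (lower row), in Tnip1-/- libraries 1 to 3 (left bars) and Tnip1+/+ libraries 1 to 3 (right bars). Tnip1+/+ replicate 3 is highest for Ptgds (4.04 CPM) and melanocyte markers (130.9 CPM), and Tnip1-/- replicate 2 is lowest for Ptger3 (3.35 CPM) and adipocyte markers (72.3 CPM); these pairs were put together after their values were seen.

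Per kilobase of exon, the most abundant of the 10 genes differed between the genotypes. In Tnip1-/- skin the order by mean CPM per kilobase was Ptges (47.9), Alox5ap (38.1), Hpgd (35.1) and Ptgs1 (24.6), then Ptgs2 (5.60), Ltc4s (3.05), Alox5 (2.69), Alox12 (2.12), Alox15 (0.634) and Ptgds (0.373). Neighbours from Ptges to Ptgs1 and from Ptgs2 to Alox12 overlapped over the 3 libraries, and the steps from Ptgs1 to Ptgs2, from Alox12 to Alox15 and from Alox15 to Ptgds did not. In Tnip1+/+ skin Ptgs1 came first (33.2), then Alox5ap (23.7), Hpgd (18.6), Ptges (11.7), Ltc4s (5.03), Alox5 (3.24), Alox12 (2.55), Ptgs2 (2.21), Alox15 (1.41) and Ptgds (1.36). Ptgs1 and Alox5ap overlapped there, as did neighbours from Alox5 down to Ptgds. These levels rest on exon lengths from GENCODE M21 on a later genome build.

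Among all tested genes, those whose log2 CPM profile over the 6 libraries lay nearest to that of Ptges, by Euclidean distance after centring, were Cd101 (distance 0.20), Snora24 (0.27) and Prss12 (0.28). Nearest to Ptgds, the called gene of the 10 with the largest decrease, were Bach2 (0.43), Add2 (0.56) and D130062J21Rik (0.58). These distances describe 6 libraries in 2 groups and hold no test.

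The wider pathway was read from 49 further genes, of which 47 were tested. In Tnip1-/- skin 16 were called higher (34.0%), against 22.3% of all genes, and 9 lower (19.1%), against 22.7%. With library totals 13 were called higher and 12 lower, under a scaling in which 34.1% of all calls were higher instead of 49.6%. The median log2 fold change of the list was -0.01, against -0.04 over all genes tested. The number lower was 5 without Tnip1-/- replicate 1 and 5 without Tnip1-/- replicate 2. Pla2g10 had no counts, and Ggt1 did not pass the filter, with 14, 8 and 8 counts in the Tnip1-/- libraries and 1, 1 and 7 in the Tnip1+/+ libraries.

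Upstream, of 13 phospholipase A2 genes tested, 5 were called higher and 2 lower. These shares of 38.5% and 15.4% stand against 22.3% and 22.7% of all genes. Pla2g4d, a cytosolic phospholipase A2 gene, was close to undetected in Tnip1+/+ skin. It had 21.3, 12.9 and 13.1 CPM in the Tnip1-/- libraries, against 0.270, 0.340 and 0.111 CPM (9, 10 and 3 counts) in the Tnip1+/+ libraries. Its log2 fold change of 5.99 (SE 0.40, adjusted p = 2.49e-04) rests on few Tnip1+/+ counts. Pla2g4e, of the same gene cluster, averaged 295.5 ± 82.9 CPM in Tnip1-/- skin and 36.0 ± 4.84 CPM in Tnip1+/+ skin (log2 3.04, SE 0.23, adjusted p = 4.01e-04). Pla2g4b averaged 61.4 ± 12.5 CPM in Tnip1-/- skin and 10.3 ± 1.74 CPM in Tnip1+/+ skin (log2 2.58, SE 0.20), and its count is uncertain because 66.5% of its exon bases are shared with a read-through gene on the same strand in GENCODE M21. Pla2g4f and the secreted Pla2g2d also rose, by 1.33 and 0.84 on the log2 scale. The genes called lower were Pla2g5 (log2 -2.05, adjusted p = 0.0152) and Pla2g4c (log2 -0.997, adjusted p = 0.0456). Pla2g5 averaged 2.34 CPM in Tnip1-/- skin and 9.81 CPM in Tnip1+/+ skin. Pla2g4c was low, at 0.756 CPM in Tnip1-/- skin and 1.51 CPM in Tnip1+/+ skin. Pla2g4a, the widely expressed cytosolic form that is best known for supplying arachidonic acid, averaged 46.2 ± 0.796 CPM in Tnip1-/- skin and 46.8 ± 1.49 CPM in Tnip1+/+ skin (log2 -0.02, SE 0.09, adjusted p = 0.876). Pla2g4f, Pla2g2d, Pla2g5, Pla2g4c and Pla2g4a were named after their values were seen.

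Of 7 further terminal synthase genes, 3 were called higher and 1 lower (42.9% and 14.3%, against 22.3% and 22.7% of all genes). Ptges3, a cytosolic prostaglandin E synthase that is also the Hsp90 co-chaperone p23, averaged 166.4 ± 10.2 CPM in Tnip1-/- skin and 97.5 ± 10.5 CPM in Tnip1+/+ skin (log2 0.77, SE 0.12, adjusted p = 0.00326). Ptges2 rose by 0.80 (SE 0.16, adjusted p = 0.00719). The gene listed as 2810405K02Rik, which the RefSeq table names Prxl2b, a prostamide and prostaglandin F synthase, rose by 0.75 (SE 0.13, adjusted p = 0.00434). All 3 genes of prostaglandin E synthases, Ptges included, were thus called higher. The gene called lower was Cbr1, a carbonyl reductase gene (log2 -0.47), named after its values were seen. In the group of 4 transport and breakdown genes, 1 was called higher (25%, against 22.3% of all genes) and 0 lower. Ptgr1, whose reductase acts on prostaglandins after the Hpgd enzyme and also inactivates leukotriene B4, had 70.2, 95.01 and 130.3 CPM in the Tnip1-/- libraries, against 47.5, 37.1 and 54.1 CPM in the Tnip1+/+ libraries. As for Hpgd, Tnip1-/- replicate 3 was highest and replicate 1 lowest of the Tnip1-/- libraries, and the groups did not overlap (log2 1.09, SE 0.25, adjusted p = 0.0117). Abcc4, a gene of a prostaglandin exporter, had a log2 fold change of -0.57 (SE 0.25) that was not called (adjusted p = 0.0975), with 26.3, 29.7 and 24.3 CPM in the Tnip1-/- libraries, against 56.5, 29.2 and 34.1 CPM in the Tnip1+/+ libraries. The difference rested on Tnip1+/+ replicate 1, without which it was -0.23 (adjusted p = 0.254), and it was called without Tnip1+/+ replicate 2 (-0.76, adjusted p = 0.0443). Ptgr2 stood at -0.33 (SE 0.16) and was not called (adjusted p = 0.127), except with library totals (-0.48, adjusted p = 0.0393). In GENCODE M21, 32% of the exon bases of Ptgr2 are shared with a gene on the opposite strand.

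Of 9 prostanoid receptor genes, 0 were called higher and 4 lower (Ptger3, Ptgdr, Ptgfr and Ptger4). These shares of 0% and 44.4% stand against 22.3% and 22.7% of all genes. The median log2 fold change of the 9 genes was -0.73. Ptger4 was named after its values were seen. Ptger3, the gene of the EP3 receptor for prostaglandin E2, had 12.02, 3.35 and 7.73 CPM in the Tnip1-/- libraries, against 26.3, 49.95 and 24.6 CPM in the Tnip1+/+ libraries. The groups lay apart (log2 -2.13, SE 0.48, adjusted p = 0.0119). Adipocyte markers summed to 1245, 72.3 and 1059 CPM in the Tnip1-/- libraries, against 1966, 3759 and 2351 CPM in the Tnip1+/+ libraries, with the lowest and the highest library the same as for Ptger3. Without the fat-poor Tnip1-/- replicate 2, Ptger3 stood at -1.74 (adjusted p = 0.019), and the part of fat in the result beyond that was not tested. Ptgdr, the gene of the DP1 receptor for prostaglandin D2, had 0.646, 0.508 and 0.366 CPM (15, 12 and 7 counts) in the Tnip1-/- libraries, against 1.53, 1.97 and 2.74 CPM (51, 58 and 74 counts) in the Tnip1+/+ libraries. Its values did not overlap (log2 -2.01, SE 0.35, adjusted p = 0.00475), so Ptgds and Ptgdr, a synthase and a receptor of prostaglandin D2, were both called lower. The more abundant prostaglandin D synthase gene Hpgds averaged 52.5 ± 20.5 CPM in Tnip1-/- skin and 61.3 ± 16.3 CPM in Tnip1+/+ skin. It was not called (log2 -0.22, adjusted p = 0.56), nor was Gpr44, the gene of the other prostaglandin D2 receptor (log2 -0.05, SE 0.43, adjusted p = 0.932). Gpr44 was low, at 0.604 ± 0.146 CPM in Tnip1-/- skin and 0.633 ± 0.282 CPM in Tnip1+/+ skin, which limits its result. In GENCODE M21, 39% of its exon bases (as Ptgdr2) and 22.1% of those of Ptgdr are shared with a gene on the opposite strand. Hpgds and Gpr44 were named after their values were seen. Ptgfr, the gene of the prostaglandin F receptor, averaged 35.1 ± 3.02 CPM in Tnip1-/- skin and 60.4 ± 18.3 CPM in Tnip1+/+ skin (log2 -0.78, SE 0.22, adjusted p = 0.024), a call that ended without Tnip1-/- replicate 1 (adjusted p = 0.0694) or replicate 2 (adjusted p = 0.0759). Without Tnip1+/+ replicate 2, the highest library, Ptgfr stood at -0.52 (adjusted p = 0.0308).

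Downstream of the 5-lipoxygenase step, 3 of 6 leukotriene metabolism genes were called higher and 1 lower. These shares of 50% and 16.7% stand against 22.3% and 22.7% of all genes. Lta4h, the gene of the hydrolase that makes leukotriene B4, had 52.0, 57.1 and 54.5 CPM in the Tnip1-/- libraries, against 35.5, 29.7 and 36.6 CPM in the Tnip1+/+ libraries. The libraries of each genotype lay close together and the groups apart (log2 0.68, SE 0.12, adjusted p = 0.00494). On the cysteinyl side the dipeptidase genes moved in opposite directions. Dpep1, whose product converts leukotriene D4 to E4, had 72.7, 64.8 and 52.1 CPM in the Tnip1-/- libraries, against 129.9, 195.6 and 151.5 CPM in the Tnip1+/+ libraries (log2 -1.33, SE 0.19, adjusted p = 0.00262). Dpep2 had 14.2, 12.9 and 16.1 CPM in the Tnip1-/- libraries, against 8.07, 8.94 and 7.11 CPM in the Tnip1+/+ libraries (log2 0.84, SE 0.16, adjusted p = 0.00578). Neither gene's groups overlapped. The third gene called higher was Mgst2, which encodes a microsomal enzyme with leukotriene C4 synthase activity (log2 0.85, adjusted p = 0.0233), named after its values were seen.

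Both leukotriene B4 receptor genes rose and neither cysteinyl leukotriene receptor gene was called. Of these 4 genes 50% were thus called higher and 0% lower, against 22.3% and 22.7% of all genes. Ltb4r1, the gene of the high-affinity receptor that guides neutrophils, had 16.6, 9.78 and 9.71 CPM in the Tnip1-/- libraries, against 2.37, 1.80 and 2.52 CPM in the Tnip1+/+ libraries (log2 2.43, SE 0.28, adjusted p = 0.00132). Ltb4r2, the gene of the low-affinity receptor found on keratinocytes, had 7.93, 6.27 and 6.16 CPM in the Tnip1-/- libraries, against 1.56, 0.782 and 1.22 CPM in the Tnip1+/+ libraries (log2 2.51, SE 0.29, adjusted p = 0.00136). For both genes Tnip1-/- replicate 1 was the highest library, as it was for the summed neutrophil markers given above. The part of neutrophils in these values was not tested. Cysltr1 had 17.6, 26.8 and 18.3 CPM in the Tnip1-/- libraries, against 28.1, 40.4 and 23.8 CPM in the Tnip1+/+ libraries, and its log2 fold change of -0.56 (SE 0.25) was not called (adjusted p = 0.103). With library totals it was called at -0.70 (adjusted p = 0.0471), and without Tnip1+/+ replicate 2 it was -0.31 (adjusted p = 0.284).

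**Figure D4:**
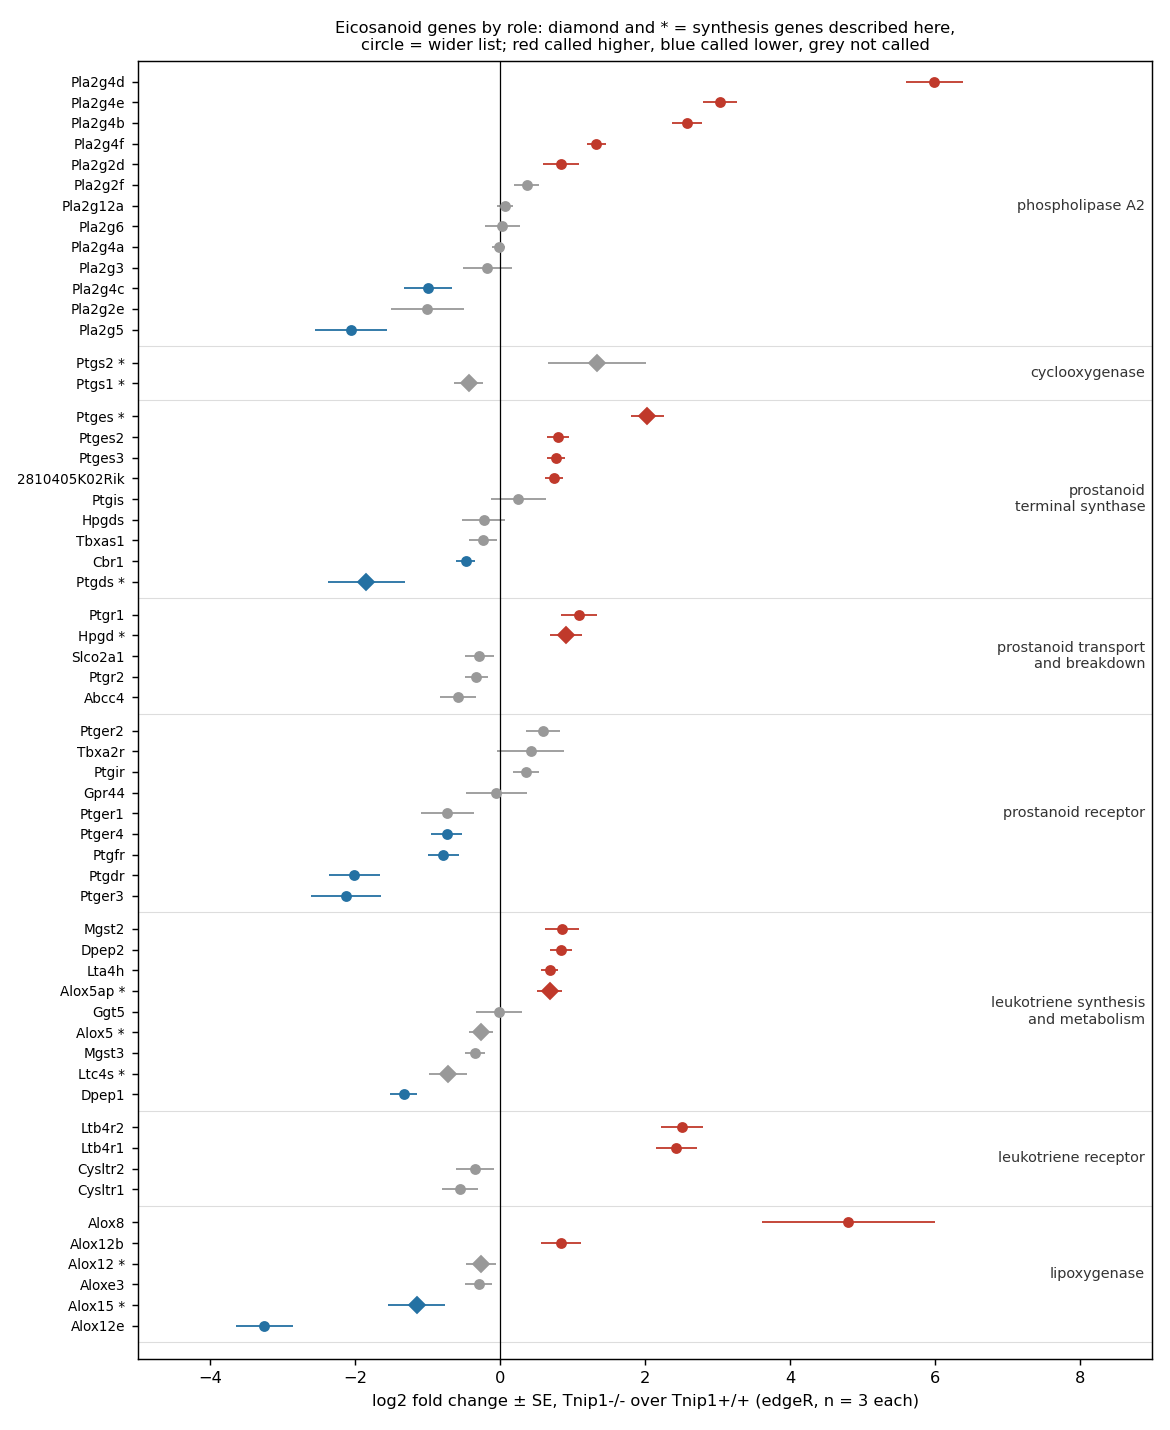
Log2 fold change of Tnip1-/- over Tnip1+/+ (horizontal axis) for the 10 genes (diamonds, marked with an asterisk) and the 47 tested genes of the wider pathway (circles), grouped by role, with bars of 1 SE. Red points were called higher, blue points lower and grey points neither; Pla2g4d (5.99) and Ptges (2.03) lie to the right, and Ptger3 (-2.13) and Alox12e (-3.25) to the left.

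Among 4 further lipoxygenase genes, 2 were called higher and 1 lower (50% and 25%, against 22.3% and 22.7% of all genes). Alox12e, the gene of the mouse epidermal 12-lipoxygenase, had 3.96, 8.09 and 2.72 CPM in the Tnip1-/- libraries, against 47.4, 38.3 and 56.1 CPM in the Tnip1+/+ libraries. All Tnip1-/- values lay below all Tnip1+/+ values (log2 -3.25, SE 0.39, adjusted p = 0.00151). Alox8, the gene of the mouse 8-lipoxygenase, was uneven, with 223.2, 161.8 and 7.52 CPM in the Tnip1-/- libraries, against 3.48, 8.73 and 1.81 CPM in the Tnip1+/+ libraries. Tnip1-/- replicate 3 lay within the Tnip1+/+ range and the other Tnip1-/- libraries far above it. The log2 fold change was 4.80 (SE 1.19, adjusted p = 0.0166), and its call ended without Tnip1+/+ replicate 1 (4.64, adjusted p = 0.053) and in limma voom (4.10, adjusted p = 0.0861). Alox12b, which belongs to the lipoxygenases of the skin barrier, had 158.8, 151.3 and 78.8 CPM in the Tnip1-/- libraries, against 87.1, 65.6 and 64.4 CPM in the Tnip1+/+ libraries. Its log2 fold change of 0.84 (SE 0.27, adjusted p = 0.0413) lost its call without Tnip1-/- replicate 1 or 2, without Tnip1+/+ replicate 2 or 3, and with library totals, upper-quartile factors or limma voom (adjusted p = 0.0512 to 0.119).

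How far each of the 10 genes rests on single animals differed. With each library left out in turn, Ptges and Hpgd were called every time, Alox5ap in 5 of 6 fits and Ptgds in 3 of 6. Alox15 was called in 1 of the 6, and Ptgs2 and Ltc4s, not called with all libraries, were each called in 1 of 6. Ptgs1, Alox5 and Alox12 were called in 0 of 6. No gene of the 10 changed direction in any of these fits.

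**Figure D5:**
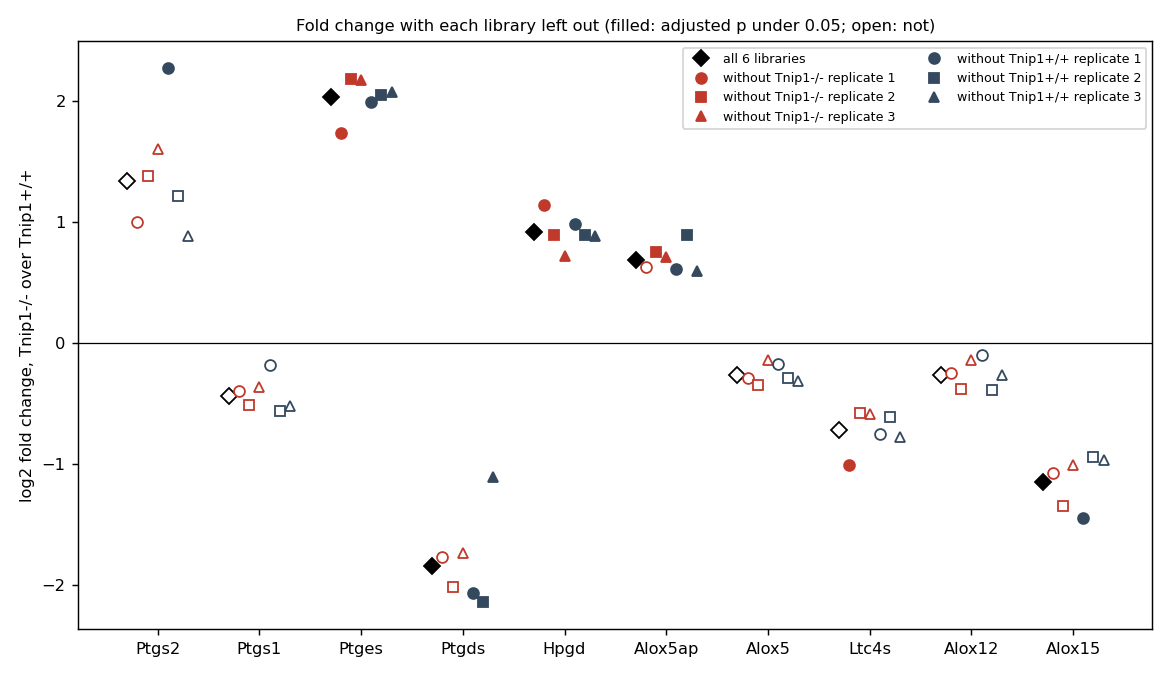
Log2 fold change of Tnip1-/- over Tnip1+/+ for each of the 10 genes (vertical axis in log2 units) with all libraries and with each library left out in turn; filled points were called and open points were not. Ptges stays between 1.73 and 2.18, called every time, while Ptgs2 ranges between 0.88 and 2.27 and was called only without Tnip1+/+ replicate 1.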

How the data were processed

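RNA from skin biopsies was sequenced in 6 libraries. The deposited values are whole-number counts of reads per gene symbol. The submitters' processing notes name CASAVA 1.7, STAR, BWA, HTSeq, limma, R 3.2.3 and build mm9, with no roles; the annotation and strand setting are not given in the sources used here. Libraries came from a stranded kit after removal of ribosomal RNA, per the labels' protocols. The design text gives 3 mice per genotype, taken as 1 library each.

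The 5 HTSeq summary lines (26.7% to 30.3% of each file's reads) were left out. Genes were filtered with filterByExpr and tested with edgeR 4.0.16 in R 4.3.3 (TMM factors, quasi-likelihood test, 3 Tnip1-/- against 3 Tnip1+/+ libraries, no covariate), with Benjamini-Hochberg adjustment over 16691 genes. The SE is the absolute log2 fold change over the square root of F. A level of 3 counts is 0.0900 to 0.157 CPM, and this floor covers counting error only. Counts of same-group libraries differed beyond counting error (chi-square over degrees of freedom 30.8 to 124.4). The scripts were tested on simulated data. Promoter windows came from RefSeq, GRCm38.p6.

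The members and gene lists were chosen with earlier results of these data known. Named genes were the 10 members, Tnip1, up to 3 genes with the smallest p per role group, and the 3 nearest profiles of Ptges and Ptgds. Other tested pathway genes are marked as named after their values were seen. Marker lists were planned as sums and counts. Markers given singly, such as Krt14, Col1a1, Cd207, Pf4 and Hdc, were outside that plan and were named after their values were seen. Alternatives were DESeq2 1.42.0, limma voom 3.58.1, library totals, upper-quartile factors, no filter, a stricter filter of at least 1 CPM in 3 libraries, a replicate block and leaving out each library.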

Additional observations from a re-analysis of the deposited data

How the results depend on the processing

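Over 14 alternatives, 120 of 140 fold changes of the 10 genes kept their direction and side of the threshold, 13 lost the call, 7 gained it and 0 reversed. Of 294 values for the named genes of the wider pathway, 279 kept both, 11 lost the call, 4 gained it and 0 reversed. The number of the 10 genes called lower was 2, and was 1 with voom, 0 with the replicate block and 0 to 2 with each library left out; DESeq2, library totals and upper-quartile factors gave 3. The number called higher was 3, and 2 to 4 with each library left out. In the wider pathway 9 were called lower, and 5 to 9 with each library left out. Over all genes 5471 to 8090 were called. The cause of these shifts was not tested.

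Tnip1-/- and Tnip1+/+ libraries share replicate numbers, but same-numbered libraries did not deviate together from their group means (r = 0.01, -0.21 and 0.19), so the numbers were not taken as pairs. With the replicate block, Ptgs2 (log2 1.68, adjusted p = 0.0234) and Cysltr1 (-0.55, adjusted p = 0.0252) were called, and Ptgds (-1.65, adjusted p = 0.0545) and Alox15 (-1.08, adjusted p = 0.0606) were not; 6465 genes were called, and not every library correlated best with its own number. The Ptgs2 to Ptgs1 difference was 2.14 under the paired exact test (p = 0.25, the smallest possible). Counts of 10 to 18 per Tnip1-/- library for Ptgds, and of 7 to 15 for Ptgdr, limit their precision.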
